A study of Mus musculus with 3 samples.

Results

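The receptor genes for calcitonin gene-related peptide (CGRP) and adrenomedullin were examined as a set of 5: Calcrl, Ramp1, Ramp2, Ramp3 and Adm, out of 18193 genes with a probe set of their own on the array. They were chosen by gene symbol, and their signals on these same arrays were known when they were chosen, so every value of theirs given here is a description and none was tested. The cells came from C57BL/6 mice; femur and tibia fragments were digested with collagenase, and cells lacking CD45, CD31 and Ter119, the surface proteins of blood, endothelial and erythroid cells, were sorted by PDGFRa and Sca-1. All 3 sorted populations share that depletion: PDGFRa(+) Sca-1(+), PDGFRa(+) Sca-1(-) and PDGFRa(-) Sca-1(-). Each was hybridised to 1 expression array, so no difference below has a replicate check, and having only 1 array each limits how precise any value can be. The sources used here give neither the age, sex and number of the mice nor whether animals were pooled.

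CGRP is a neuropeptide released by sensory nerve fibres, many of which run along bone surfaces, and adrenomedullin is a related peptide made by vascular and connective tissue cells. Both act on one G protein-coupled receptor, the product of Calcrl, which reaches the cell surface only together with a receptor activity-modifying protein (RAMP). The partner sets the ligand: with RAMP1 the receptor responds chiefly to CGRP, and with RAMP2 or RAMP3 chiefly to adrenomedullin. The complexes signal mainly through Gs, adenylyl cyclase and cAMP.

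The members divided by population. Read from each gene's brightest probe set, Calcrl, Ramp2 and Adm were highest in PDGFRa(+) Sca-1(+) cells and Ramp1 in PDGFRa(+) Sca-1(-) cells. The Ramp3 signal lay below the floor in all 3 populations. The floor was a signal of 93.2, the mean of the 3 array medians, and stood in for detection calls. A ratio against a signal under it is a bound, written "at least". Ratios of at least 2-fold were called higher or lower. Of the 5 members, 4 could be compared between PDGFRa(+) Sca-1(+) and PDGFRa(+) Sca-1(-) cells, and 3 were higher and 1 lower; among all 11855 genes compared, 14.9% were higher and 11.3% lower, 26.2% in all. Between PDGFRa(+) Sca-1(-) and PDGFRa(-) Sca-1(-) cells, 2 of 3 members compared were higher and 0 lower, where 4.82% of 11675 genes were higher and 5.63% lower, 10.4% in all. Between PDGFRa(+) Sca-1(+) and PDGFRa(-) Sca-1(-) cells, 3 of 4 were higher and 1 lower, where 14.5% of 11843 genes were higher and 12.2% lower, 26.6% in all. Since the members were chosen for these contrasts, nothing is read from their counts against these shares.

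**Figure D1:**
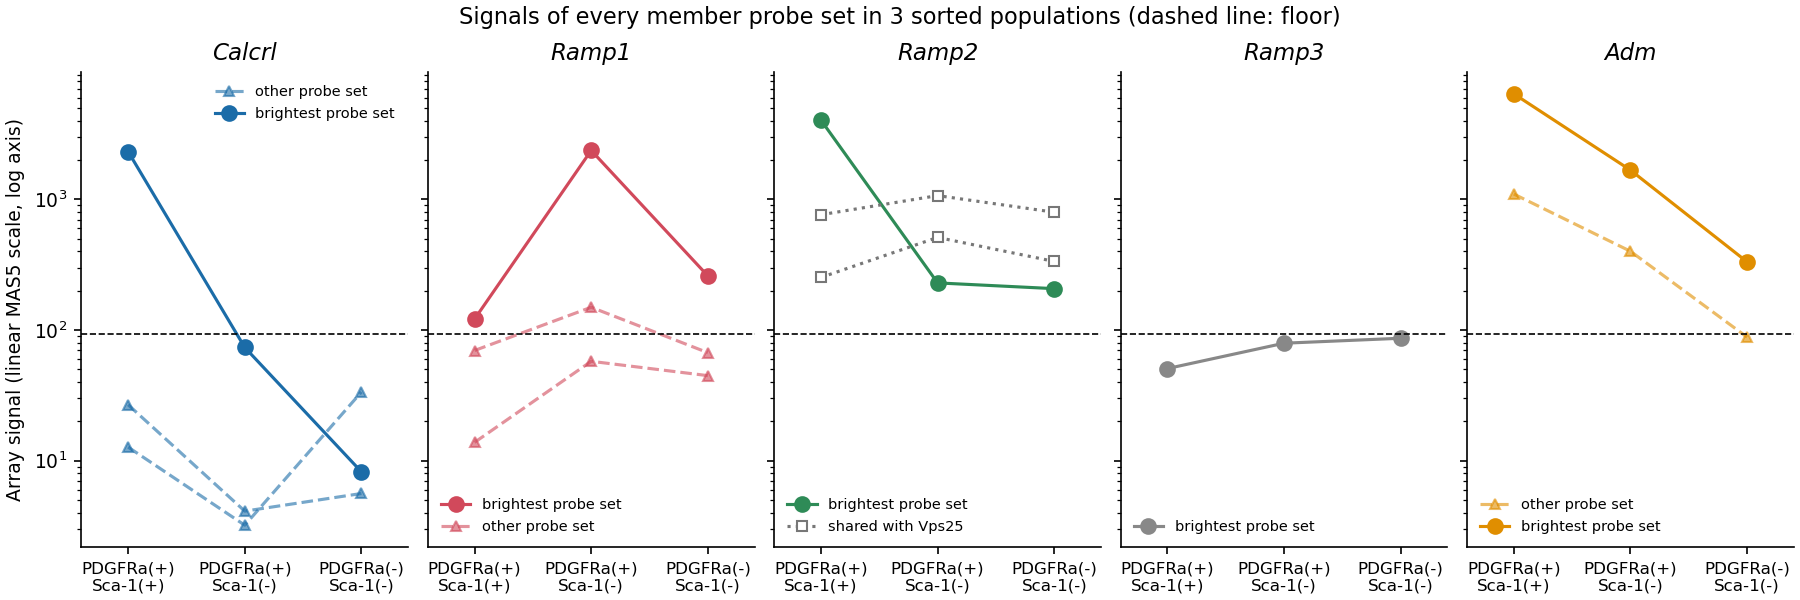
Signal of every probe set of the 5 genes (log axis, linear MAS5 scale) on the arrays of PDGFRa(+) Sca-1(+), PDGFRa(+) Sca-1(-) and PDGFRa(-) Sca-1(-) cells; points are single arrays, circles the brightest probe set of each gene, triangles its other probe sets, open squares probe sets that also list Vps25, and the dashed line the floor of 93.2. By their brightest probe sets, Calcrl and Ramp2 stand high in PDGFRa(+) Sca-1(+) cells alone. Adm steps down across the populations, and Ramp1 peaks in PDGFRa(+) Sca-1(-) cells. The other Calcrl probe sets lie under the floor, and those shared with Vps25 do not show the Ramp2 step.

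The gates and the arrays were read first. The Pdgfra signal was 12846 in PDGFRa(+) Sca-1(+) cells, 2420 in PDGFRa(+) Sca-1(-) cells and 586 in PDGFRa(-) Sca-1(-) cells, and Ptprc (CD45) and Pecam1 (CD31) lay under the floor on all 3 arrays. The gene encoding Sca-1 is not analysed here. The label calls all 3 populations endosteal cells. Over all 18193 genes, 10846 were above the floor in PDGFRa(+) Sca-1(+), 11042 in PDGFRa(+) Sca-1(-) and 11026 in PDGFRa(-) Sca-1(-) cells. Of 7 osteoblast genes on the array 6, 7 and 7 were above the floor in that order of populations, and of 9 cartilage genes 8, 9 and 9, with Col9a2, a cartilage collagen, at 129, 12559 and 12746. Fibroblast markers were higher in PDGFRa(+) Sca-1(+) than in PDGFRa(+) Sca-1(-) cells for 8 of 10 genes, beside 14.9% of all genes. They were led by Cd34 (68.3-fold), Mfap5 (60.4-fold) and Cd248 (at least 60.3-fold), and the list holds Pdgfra, the gene sorted on. Lum (22199 against 23896) and Dcn (34207 against 33977) were within 2-fold, though the other Dcn probe set had a log2 ratio of 1.94. Osteoblast markers were lower for 6 of 7 and cartilage markers for 8 of 9, beside 11.3% of all genes. The first were led by Dmp1 (at least 138-fold), Alpl (44.3-fold) and Ibsp (43.5-fold). The cartilage markers were led by Matn1 (163-fold), Col9a2 (97.4-fold) and Col10a1 (89.4-fold). Col1a1 (14417 against 25131) and Comp (25256 against 28927) were within 2-fold, though the other Col1a1 probe set had a log2 ratio of −1.70. The ratio of the 3' to the 5' control probe set of Actb was 4.65, 2.63 and 2.99 in PDGFRa(+) Sca-1(+), PDGFRa(+) Sca-1(-) and PDGFRa(-) Sca-1(-) cells; that of Gapdh was 4.73, 3.54 and 3.93. Both were highest in PDGFRa(+) Sca-1(+) cells, and their part in the members' ratios was not tested. Without replicates, the nearest to a repeat was a gene read by several probe sets, whose log2 ratios had an SD of 0.60 for PDGFRa(+) Sca-1(+) over PDGFRa(+) Sca-1(-), 0.37 for PDGFRa(+) Sca-1(-) over PDGFRa(-) Sca-1(-) and 0.50 for PDGFRa(+) Sca-1(+) over PDGFRa(-) Sca-1(-). It covers scatter between probes, not between animals or arrays. In sorted cells measured in bulk, fewer cells carrying a transcript and less transcript per cell cannot be told apart. Signals of different probe sets are not on one scale, so each gene is compared only with itself across arrays.

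Calcrl encodes the receptor itself. Its brightest probe set, 1425814_a_at, gave 2319 in PDGFRa(+) Sca-1(+) cells, against 73.5 in PDGFRa(+) Sca-1(-) cells and 8.20 in PDGFRa(-) Sca-1(-) cells. Only the first of these lay above the floor, so Calcrl was at least 24.9-fold higher in PDGFRa(+) Sca-1(+) cells than in either Sca-1(-) population, and the order of those 2 populations is not set. Of 11855 genes compared between the PDGFRa(+) populations, 28 including Calcrl itself had a ratio or bound this large. The other Calcrl probe sets did not see it. Probe set 1418489_a_at gave 26.8, 4.10 and 5.60, and 1459536_at gave 12.7, 3.20 and 33.5, in PDGFRa(+) Sca-1(+), PDGFRa(+) Sca-1(-) and PDGFRa(-) Sca-1(-) cells. All of these lay under the floor, so the Calcrl difference rests on 1 of 3 probe sets. The bound also moves with the floor: with the floor at the 67th percentile of the signals it was a log2 ratio of 3.18 against both Sca-1(-) populations, in place of 4.64.

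Ramp2 encodes the partner that gives the receptor its preference for adrenomedullin. Its probe set, 1418187_at, gave 4037 in PDGFRa(+) Sca-1(+) cells, 229 in PDGFRa(+) Sca-1(-) cells and 207 in PDGFRa(-) Sca-1(-) cells, all above the floor. It was thus 17.6-fold higher in PDGFRa(+) Sca-1(+) than in PDGFRa(+) Sca-1(-) cells, and 19.5-fold higher than in PDGFRa(-) Sca-1(-) cells. The 2 Sca-1(-) populations differed by 1.11-fold, less than the scatter between probe sets. A further 2 probe sets are annotated to both Ramp2 and Vps25, neighbours in the RefSeq gene table, and cannot be assigned to either. Probe set 1421051_s_at gave 252 in PDGFRa(+) Sca-1(+), 511 in PDGFRa(+) Sca-1(-) and 335 in PDGFRa(-) Sca-1(-) cells, and 1428621_a_at gave 762, 1068 and 797 in the same order. Neither showed the step seen with the probe set of Ramp2 alone: their log2 ratios for PDGFRa(+) Sca-1(+) over PDGFRa(+) Sca-1(-) were −1.02 and −0.49, against 4.14. The probe set listing only Vps25, a subunit of an endosomal sorting complex, gave 49.8, 150.4 and 138.5. The first lay under the floor, so its difference from the other populations is a bound, and under 2-fold. Which transcript the shared probe sets read was not tested.

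Ramp1 encodes the partner that gives the receptor its preference for CGRP. Between the PDGFRa(+) populations it ran the other way from Ramp2. Probe set 1417481_at gave 121 in PDGFRa(+) Sca-1(+) cells, 2367 in PDGFRa(+) Sca-1(-) cells and 259 in PDGFRa(-) Sca-1(-) cells, all above the floor. It was 19.5-fold lower in PDGFRa(+) Sca-1(+) than in PDGFRa(+) Sca-1(-) cells, and 9.13-fold higher in PDGFRa(+) Sca-1(-) than in PDGFRa(-) Sca-1(-) cells. By this probe set, 15 of 11675 genes, Ramp1 included, had a ratio this large for PDGFRa(+) Sca-1(-) over PDGFRa(-) Sca-1(-) cells. Since the members were chosen with these values known, nothing is read from this rank or from that of Calcrl. The outer populations differed less, with Ramp1 2.14-fold lower in PDGFRa(+) Sca-1(+) than in PDGFRa(-) Sca-1(-) cells; that ratio was under 2-fold with log2(signal + 50) in place of the floor (log2 ratio −0.85), with median scaling (−0.99) and with the floor at the 67th percentile (−0.02). Of the other probe sets, 1447474_at gave 69.6, 149 and 67.01 in PDGFRa(+) Sca-1(+), PDGFRa(+) Sca-1(-) and PDGFRa(-) Sca-1(-) cells, above the floor on the middle array alone and higher there by a bound under 2-fold than in either other population. Probe set 1431413_at stayed under the floor throughout, at 13.8, 57.6 and 44.7. With the mean over probe sets the Ramp1 log2 ratios were −2.48 for PDGFRa(+) Sca-1(+) over PDGFRa(+) Sca-1(-) and 1.93 for PDGFRa(+) Sca-1(-) over PDGFRa(-) Sca-1(-), in place of −4.29 and 3.19. That mean left out 1431413_at, which could not be compared.

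Ramp3 encodes the third partner, which also favours adrenomedullin. Its single probe set gave 50.6 in PDGFRa(+) Sca-1(+) cells, 79.2 in PDGFRa(+) Sca-1(-) cells and 86.4 in PDGFRa(-) Sca-1(-) cells. All lay under the floor, so Ramp3 was not compared; a signal that low on an array does not show that the transcript is absent.

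Adm encodes adrenomedullin, the ligand. Its brightest probe set, 1447839_x_at, gave 6421 in PDGFRa(+) Sca-1(+) cells, 1673 in PDGFRa(+) Sca-1(-) cells and 332 in PDGFRa(-) Sca-1(-) cells. It was 3.84-fold higher in PDGFRa(+) Sca-1(+) than in PDGFRa(+) Sca-1(-) cells, 5.04-fold higher in PDGFRa(+) Sca-1(-) than in PDGFRa(-) Sca-1(-) cells, and 19.3-fold higher across both steps. The other probe set, 1416077_at, gave 1098, 400.3 and 88.1 in the same order, with the last under the floor. Its ratios were 2.74-fold, at least 4.30-fold and at least 11.8-fold, so both Adm probe sets placed the populations in one order. Of the 3 members compared at both steps, Adm alone passed 2-fold at both in one direction; Calcrl was not compared between the Sca-1(-) populations.

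**Figure D2:**
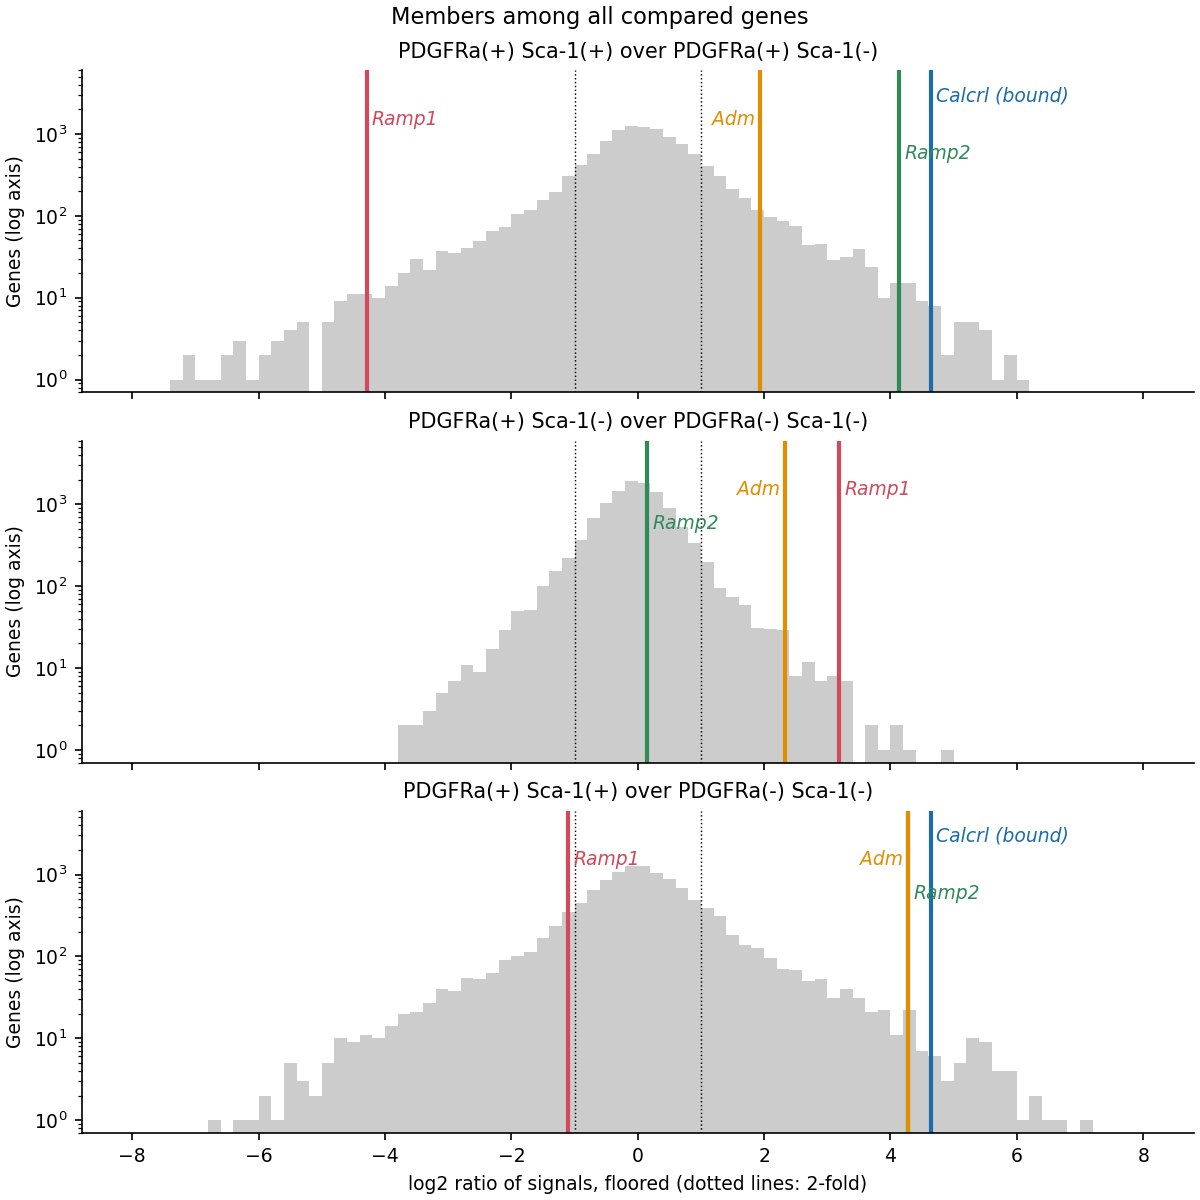
Histograms of the log2 ratios of all compared genes (x axis, log2 of floored signals; y axis, number of genes on a log scale) for the 3 pairs of populations, with the members as coloured lines and 2-fold as dotted lines. Ramp2 and Calcrl lie at 4.14 and at least 4.64 for PDGFRa(+) Sca-1(+) over PDGFRa(+) Sca-1(-) and Ramp1 at −4.29, whereas for PDGFRa(+) Sca-1(-) over PDGFRa(-) Sca-1(-) Ramp1 lies at 3.19 and Ramp2 at 0.15.

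Set side by side, Ramp2 and Ramp1 ran in opposite directions between the PDGFRa(+) populations. The log2 ratios of Ramp2 (4.14) and Ramp1 (−4.29) lay 8.43 apart for PDGFRa(+) Sca-1(+) over PDGFRa(+) Sca-1(-). For PDGFRa(+) Sca-1(-) over PDGFRa(-) Sca-1(-) they lay 3.04 apart the other way, Ramp2 at 0.15 and Ramp1 at 3.19, and the corresponding Calcrl signals were both under the floor. The 3 comparisons share arrays, so these values are not independent of each other.

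Between the PDGFRa(+) populations, Calcrl and Adm were higher in PDGFRa(+) Sca-1(+) cells and Ramp1 was lower. The 300 bases around the start of transcription are given for these members, the ones that differed and that the promoter table holds. They come from RefSeq on mouse build GRCm38.p6 and run 5′ to 3′ on the gene's strand, from 250 bases before the start to 50 after it; a sequence for 4 of the 5 members was matched by symbol. Capitals mark every match, on either strand, to the letters ACGTG and GCGTG (the core bound by hypoxia-inducible factors), TGACG (the core of the cAMP response element), GGGCGG (the GC box) and TATAA (the TATA box).
Calcrl, chr2:84425217-84425516, minus strand: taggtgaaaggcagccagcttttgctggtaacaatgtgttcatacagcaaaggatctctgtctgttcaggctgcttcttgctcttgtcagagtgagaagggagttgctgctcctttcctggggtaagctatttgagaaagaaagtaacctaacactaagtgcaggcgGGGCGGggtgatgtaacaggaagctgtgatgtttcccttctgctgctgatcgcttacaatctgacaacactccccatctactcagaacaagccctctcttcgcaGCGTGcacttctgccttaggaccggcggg
Adm, chr7:110627407-110627706, plus strand: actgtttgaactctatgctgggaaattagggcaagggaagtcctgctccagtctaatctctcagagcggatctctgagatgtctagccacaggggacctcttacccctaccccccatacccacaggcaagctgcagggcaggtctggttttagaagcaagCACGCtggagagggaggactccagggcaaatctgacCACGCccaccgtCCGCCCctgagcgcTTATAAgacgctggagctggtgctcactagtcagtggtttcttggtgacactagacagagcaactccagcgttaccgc
Ramp1, chr1:91179572-91179871, plus strand: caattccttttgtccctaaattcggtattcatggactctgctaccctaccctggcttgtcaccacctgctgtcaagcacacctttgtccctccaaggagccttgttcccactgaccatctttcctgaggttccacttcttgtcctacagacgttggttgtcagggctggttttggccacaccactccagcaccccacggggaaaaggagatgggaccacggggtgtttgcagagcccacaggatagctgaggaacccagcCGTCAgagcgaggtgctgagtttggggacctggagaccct
Counting from 1 at the 5′ end, the Calcrl window held GGGCGG at base 168 and GCGTG at base 272. The Adm window held GCGTG on the opposite strand at bases 161 and 197, GGGCGG on the opposite strand at base 209, and overlapping TATAA matches on both strands at bases 223 and 224. The Ramp1 window held TGACG on the opposite strand at base 261 and no match to the other letters. Such matches are common: of 32851 promoter windows of this length, 43.8% held ACGTG or GCGTG, 20.8% TGACG, 35.7% GGGCGG and 24.9% TATAA. They describe the letters and do not show a bound site.

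Of 7 genes for ligands and relatives of the peptide family with a probe set, 4 lay under the floor on all 3 arrays: Calcb, encoding a second form of CGRP, Iapp, encoding amylin, Calcr, the calcitonin receptor gene, and Gpr182, an orphan relative. None of the 3 compared was called higher or lower between the PDGFRa(+) populations, beside 26.2% of all genes. For 1 of them, Adm2, the ratio is a bound under 2-fold, so a larger difference is not excluded. Ackr3, a decoy receptor for chemokines that also takes up adrenomedullin, gave 19376 in PDGFRa(+) Sca-1(+), 13929 in PDGFRa(+) Sca-1(-) and 8479 in PDGFRa(-) Sca-1(-) cells, 2.29-fold higher in the first than in the last. Adm2, encoding the related peptide intermedin, gave 26.4 in PDGFRa(+) Sca-1(+), 151.4 in PDGFRa(+) Sca-1(-) and 155.6 in PDGFRa(-) Sca-1(-) cells, and was at least 1.62-fold lower in PDGFRa(+) Sca-1(+) than in PDGFRa(+) Sca-1(-) cells. Crcp, whose product is a small protein tied to the CGRP receptor, gave 614, 708 and 607 in the same order, all within 2-fold. Calca, encoding the main form of CGRP, is not analysed here.

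Enzymes that make or break down such peptides were read next. Between the PDGFRa(+) populations 9 were compared, of which 3 were higher and 2 lower, beside 14.9% and 11.3% of all genes; the median log2 ratio was 0.10, beside 0.07 over all genes compared. Mme, encoding neprilysin, which cleaves CGRP and adrenomedullin, gave 2275 in PDGFRa(+) Sca-1(+), 524 in PDGFRa(+) Sca-1(-) and 188 in PDGFRa(-) Sca-1(-) cells, in the same order as Adm. It was 4.34-fold higher in PDGFRa(+) Sca-1(+) than in PDGFRa(+) Sca-1(-) cells and 2.79-fold higher in PDGFRa(+) Sca-1(-) than in PDGFRa(-) Sca-1(-) cells. Ece1, encoding endothelin-converting enzyme, was 7.23-fold higher in PDGFRa(+) Sca-1(+) than in PDGFRa(+) Sca-1(-) cells, though its other probe set had a log2 ratio of 0.94. Furin, a proprotein convertase gene, was 2.79-fold lower, at 738 against 2055. Pcsk1 lay under the floor on all 3 arrays.

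RAMPs are also reported to pair with other G protein-coupled receptors. Of 8 such genes with a probe set, 5 were compared between the PDGFRa(+) populations, and 2 were lower in PDGFRa(+) Sca-1(+) cells and 0 higher, beside 11.3% and 14.9% of all genes, with a median log2 ratio of −0.91. Pth1r, the parathyroid hormone receptor gene of osteoblasts and chondrocytes and also one of the osteoblast markers above, gave 840.5 in PDGFRa(+) Sca-1(+), 21462 in PDGFRa(+) Sca-1(-) and 11783 in PDGFRa(-) Sca-1(-) cells. It was 25.5-fold lower in PDGFRa(+) Sca-1(+) than in PDGFRa(+) Sca-1(-) cells, and 1.82-fold higher in PDGFRa(+) Sca-1(-) than in PDGFRa(-) Sca-1(-) cells, a smaller step than the 9.13-fold of Ramp1. Vipr2, a receptor for vasoactive intestinal peptide, was 2.29-fold lower in PDGFRa(+) Sca-1(+) than in PDGFRa(+) Sca-1(-) cells, at 99.99 against 229, and Casr, the calcium-sensing receptor gene, had a log2 ratio of −0.91. Vipr1, Gcgr and Sctr lay under the floor on all 3 arrays.

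Downstream of the receptors, Gs, adenylyl cyclase and protein kinase A genes were higher in PDGFRa(+) Sca-1(+) than in PDGFRa(+) Sca-1(-) cells for 5 of 18 members compared and lower for 1, beside 14.9% and 11.3% of all genes, with a median log2 ratio of 0.64 beside 0.07 over all genes. Adcy7, an adenylyl cyclase gene, gave 4918 in PDGFRa(+) Sca-1(+), 449 in PDGFRa(+) Sca-1(-) and 670 in PDGFRa(-) Sca-1(-) cells, 10.96-fold higher at the Sca-1 step, with its 3 probe sets between log2 ratios of 0.93 and 3.50. Adcy4 was at least 2.67-fold higher, and Prkar2b, a regulatory subunit of protein kinase A, 3.39-fold lower. Adcy9, Prkaca and Adcy5 were 2.04-fold, 2.07-fold and at least 2.23-fold higher, each with another probe set under 2-fold. Of 11 phosphodiesterase, receptor kinase and arrestin genes compared 2 were higher and 1 lower, close to the shares over all genes (14.9% and 11.3%). Arrb1, encoding an arrestin that uncouples activated receptors, was 7.86-fold higher in PDGFRa(+) Sca-1(+) than in PDGFRa(+) Sca-1(-) cells, at 818 against 104, and the receptor kinase gene Grk5 was 4.31-fold higher. Grk3, another receptor kinase gene, was 5.62-fold lower by its brightest probe set, but its 3 probe sets spread between −2.49 and −0.07 in log2 ratio.

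Of 12 genes known to respond to cAMP that were compared between the PDGFRa(+) populations, 1 was higher and 2 lower, a share close to the 26.2% of all genes past 2-fold there. Between PDGFRa(+) Sca-1(-) and PDGFRa(-) Sca-1(-) cells 0 of 12 passed 2-fold, beside 10.4% of all genes. Sik1, a salt-inducible kinase gene, was 2.58-fold higher in PDGFRa(+) Sca-1(+) than in PDGFRa(+) Sca-1(-) cells (log2 ratio of its other probe set 0.34), the clock gene Per1 3.78-fold lower and Id1, encoding an inhibitor of differentiation factors, 2.08-fold lower. Adm is also known as a target of hypoxia-inducible factors. Of 15 other such genes compared 3 were higher and 5 lower in PDGFRa(+) Sca-1(+) than in PDGFRa(+) Sca-1(-) cells, with a median log2 ratio of −0.61, beside 14.9% higher and 11.3% lower over all genes. Between PDGFRa(+) Sca-1(+) and PDGFRa(-) Sca-1(-) cells 2 of 15 were higher and 7 lower, beside 14.5% and 12.2% of all genes. Adm was higher in both comparisons, and the part of hypoxia in its signals was not tested. Egln3, an oxygen-sensing hydroxylase gene, was 7.29-fold higher in PDGFRa(+) Sca-1(+) than in PDGFRa(+) Sca-1(-) cells, with its other probe set at a log2 ratio of 0.46, whereas the glucose transporter gene Slc2a1 was 6.00-fold lower and the growth factor gene Vegfa 5.12-fold lower.

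**Figure D3:**
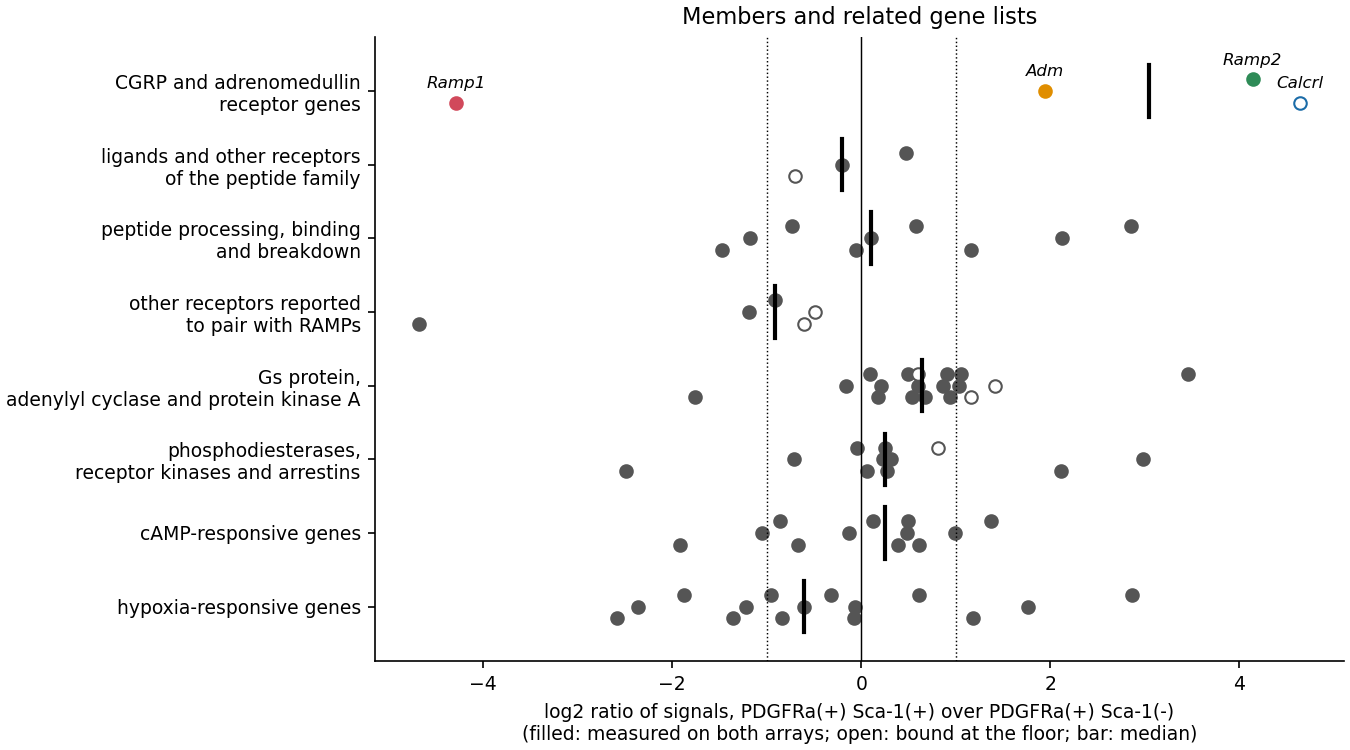
Log2 ratios of floored signals for PDGFRa(+) Sca-1(+) over PDGFRa(+) Sca-1(-) (x axis) of the members and 7 related gene lists (rows); each point is a gene, open points are bounds at the floor, bars are list medians and dotted lines mark 2-fold. The median is 0.64 for the Gs, adenylyl cyclase and protein kinase A list, 0.26 for the cAMP-responsive genes and −0.61 for the hypoxia-responsive genes.

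Calcrl and Ramp2 are well known in endothelial cells, which the sort removed by CD31. Of 18 endothelial markers 3 were above the floor in PDGFRa(+) Sca-1(+), 5 in PDGFRa(+) Sca-1(-) and 4 in PDGFRa(-) Sca-1(-) cells, and their summed signals were 2036, 1614 and 1376. Over all 18193 genes, 10846, 11042 and 11026 were above it in the same order. A count of markers above the floor does not by itself show whether a cell type was present. The markers Pecam1, Cdh5 and Tie1 were under the floor on all 3 arrays, though none of the 18 was listed at 0. Kdr, another of them, was above the floor in PDGFRa(+) Sca-1(+) cells at 154.8 and in PDGFRa(+) Sca-1(-) cells at 110.4. It gave 67.1 in PDGFRa(-) Sca-1(-) cells, under the floor. Tek, an angiopoietin receptor gene, was nonetheless at least 9.53-fold higher in PDGFRa(+) Sca-1(+) than in PDGFRa(+) Sca-1(-) cells, at 888 against 37.4, and Plvap, of fenestrated endothelium, 2.38-fold higher, while Erg, a transcription factor gene of endothelium and cartilage, was at least 7.04-fold lower. Of 11 pericyte and smooth muscle markers 8, 7 and 7 were above the floor in the same order of populations, with summed signals of 8422, 14102 and 16911. In the Sca-1(-) populations these sums were carried mostly by Cspg4, at 10083 and 10403, against 2060 in PDGFRa(+) Sca-1(+) cells. Among them Rgs5 was 8.92-fold and Abcc9 4.96-fold higher in PDGFRa(+) Sca-1(+) than in PDGFRa(+) Sca-1(-) cells, the other Rgs5 probe set having a log2 ratio of 0.40, and Cspg4 was 4.90-fold lower; Mcam and Myh11 lay under the floor throughout. The part of endothelial cells or pericytes in the Calcrl and Ramp2 signals was not tested. Of 9 blood cell markers 3, 5 and 5 were above the floor, with sums of 832, 955 and 947, and Ptprc, Cd3e, Itgam and Kit were under it on all arrays. Of 4 markers of nerve-associated cells 4, 3 and 3 were above it, with sums of 1534, 6529 and 9234 carried mostly by S100b, which cartilage also expresses.

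The genes most like each member were those with the smallest Euclidean distance in floored log2 signal over the 3 arrays, after each gene was centred on its own mean. With 3 points per gene many genes lie close, and a signal under the floor enters at the floor, so a distance that involves one is set partly by the floor and the order of such genes is not read: of 11698 genes searched, 101 lay within a distance of 1 from Calcrl, 146 from Ramp2, 52 from Adm and 37 from Ramp1. The 4 taken for Calcrl, itself under the floor on 2 arrays, were Tmeff2, a transmembrane protein gene, at 2182 in PDGFRa(+) Sca-1(+), 69.8 in PDGFRa(+) Sca-1(-) and 71.4 in PDGFRa(-) Sca-1(-) cells, the chemokine gene Ccl2, the matrix gene Fbln2 and the sodium channel gene Scn7a. Those taken for Ramp2 were Hmcn1, encoding the matrix protein hemicentin, the interferon-inducible Ifi204, the actin-capping gene Tmod2 and Lgi2. All 4 were under the floor in both Sca-1(-) populations, where Ramp2 was above it, so their ratios are bounds and those of Ramp2 are measured.

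Nearest to Adm, among genes above the floor on all 3 arrays, was the annexin gene Anxa3, at 7724 in PDGFRa(+) Sca-1(+), 1941 in PDGFRa(+) Sca-1(-) and 377 in PDGFRa(-) Sca-1(-) cells (distance 0.06). Pdgfra, the gene of the sorting marker itself, came next (0.33), then the Wnt-binding gene Sfrp2 (0.37); the guidance gene Slit3 was also taken but was under the floor in PDGFRa(-) Sca-1(-) cells. Those taken for Ramp1 were Cpz, encoding a carboxypeptidase that binds Wnt proteins, at 59.9 in PDGFRa(+) Sca-1(+), 1988 in PDGFRa(+) Sca-1(-) and 209 in PDGFRa(-) Sca-1(-) cells, the homeobox gene Irx5, the lipid synthesis gene Cds1 and Cdh2, the N-cadherin gene. As follows from how they were picked, all 4 were brightest in PDGFRa(+) Sca-1(-) cells. Irx5 alone was above the floor on all 3 arrays (distance 0.12).

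**Figure D4:**
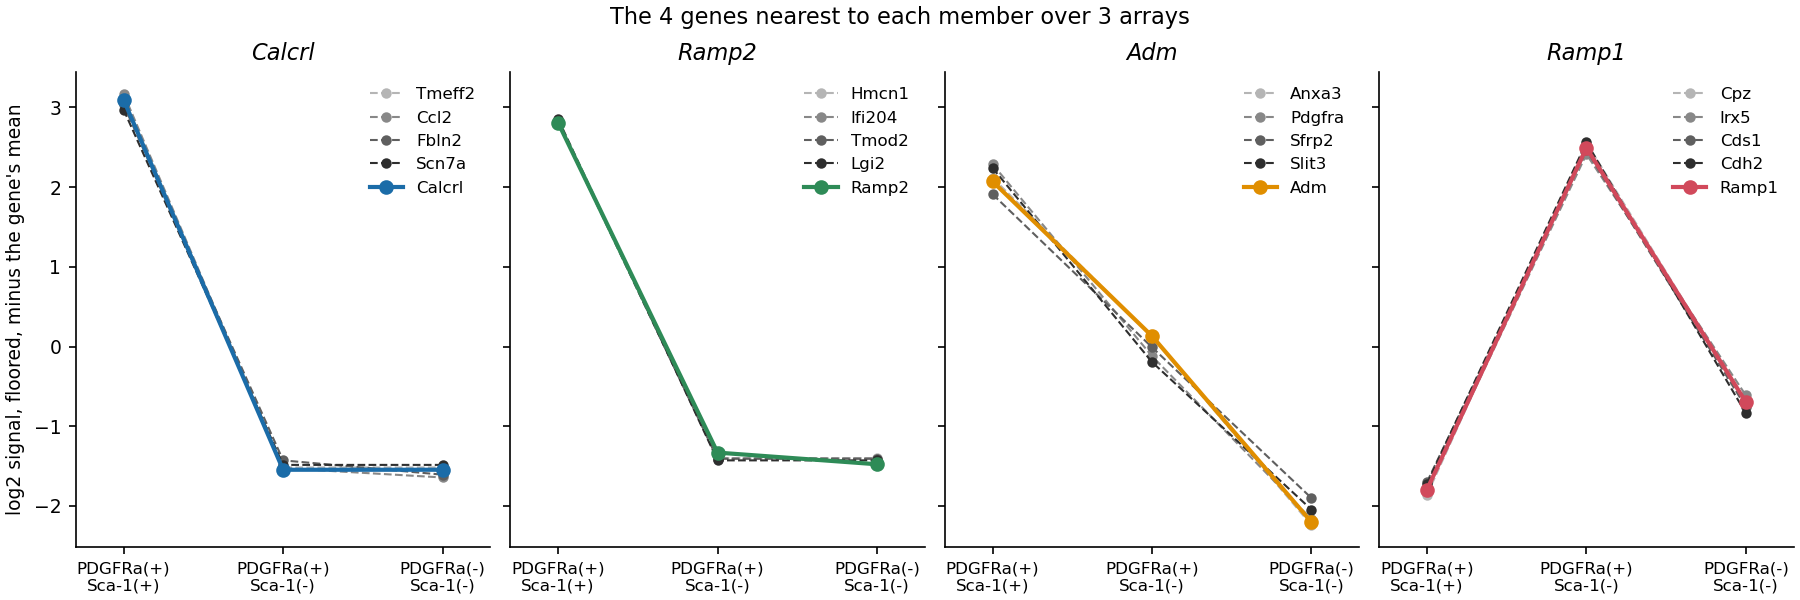
Floored log2 signal minus the gene's own mean (y axis) on the 3 arrays (x axis) for Calcrl, Ramp2, Adm and Ramp1 (coloured) and the 4 genes nearest to each in floored signal (grey); signals under the floor are drawn at the floor. The shapes follow from how the neighbours were picked. Those of Calcrl and Ramp2 are high in PDGFRa(+) Sca-1(+) cells alone. Those of Adm step down with Pdgfra among them, and those of Ramp1 peak in PDGFRa(+) Sca-1(-) cells.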

How the data were processed

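Total RNA of 3 sorted populations was amplified and biotin-labelled with the Affymetrix two-cycle assay, per the labels' protocols. The authors deposited linear intensities, 1 per probe set, made with MAS5, per the submitters' processing notes; its version is not given in the sources used here. Here 64 control probe sets were left out, the arrays were brought to one 2% trimmed mean of the remaining 45037, signals under 93.2 (the mean of the array medians) were raised to that floor, and log2 was taken, with Python 3.11.15, numpy 2.4.6 and pandas 2.3.3. Gene names came from the platform annotation: 34945 probe sets had 1 symbol, 932 several and 9160 none, and 34741 were matched by gene number to RefSeq GRCm38.p6. Each gene was read from its brightest probe set by mean log2 signal. The members had 10 probe sets with 1 symbol, of which 6 were above the floor on at least 1 array, and 2 shared with another gene.

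With 1 array per population no p-value was computed. The members and gene lists were chosen with earlier results of these data known. Named were all members, the gate genes and the 4 genes nearest to each member. Also named were up to 3 genes per list with the largest ratio between the PDGFRa(+) populations. Genes under the floor throughout were named in lists of at most 12. Cdh5, Tie1 and Kdr were named after their values were seen, as endothelial markers. Adcy9, Prkaca and Adcy5 were likewise named later, for their other probe sets. So were Lum, Dcn, Col1a1 and Comp, as listed markers within 2-fold. The calling of genes was tested on simulated data, with a noise that was set and not measured from replicates. The changed genes were drawn from those well above the floor, so bounds such as that of Calcrl were not covered. Alternatives were other floors (33rd and 67th percentile), log2(signal + 50), median scaling, quantile normalization, the mean over probe sets and a 3-fold threshold.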

Additional observations from a re-analysis of the deposited data

How the results depend on the processing

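The 11 log2 ratios of members kept their sign in all 65 values recomputed under 6 alternatives, and 62 stayed on their side of 2-fold; the 3 that crossed were all Ramp1 for PDGFRa(+) Sca-1(+) over PDGFRa(-) Sca-1(-), given with its values in the results. The shift exceeded the scatter between probe sets in 8 values. With the floor at the 67th percentile Calcrl was 3.18 against both Sca-1(-) populations, and Ramp1 was −3.21 for PDGFRa(+) Sca-1(+) over PDGFRa(+) Sca-1(-) and −0.0196 over PDGFRa(-) Sca-1(-), since a higher floor shortens ratios that reach it. Calcrl for PDGFRa(+) Sca-1(+) over PDGFRa(-) Sca-1(-) was 5.82 with the floor at the 33rd percentile and 5.35 with log2(signal + 50). The mean over probe sets gave −2.48 for Ramp1 in PDGFRa(+) Sca-1(+) over PDGFRa(+) Sca-1(-) and 1.93 in PDGFRa(+) Sca-1(-) over PDGFRa(-) Sca-1(-). That mean left out probe sets under the floor on both arrays and those shared with another gene. Calcrl and Ramp2 therefore kept their main values under it, and the counts above do not cover their disagreeing probe sets. The number of genes past the threshold was 1534, 392 and 1560 at 3-fold, against 3103, 1220 and 3156 at 2-fold, for PDGFRa(+) Sca-1(+) over PDGFRa(+) Sca-1(-), PDGFRa(+) Sca-1(-) over PDGFRa(-) Sca-1(-) and PDGFRa(+) Sca-1(+) over PDGFRa(-) Sca-1(-). It was 753 for the middle pair with the floor at the 67th percentile. Median scaling moved the median log2 ratio of all genes by 0.12 for PDGFRa(+) Sca-1(+) over PDGFRa(+) Sca-1(-). No paired analysis was possible because each population has 1 array, and for the same reason no array could be left out. Signal over background limits Calcrl, which is measured on 1 array, and Ramp3, which is measured on none.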
